A study of Mus musculus with 6 samples.

Results

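Glypicans and syndecans are the main families of heparan sulfate proteoglycans at the cell surface. The 10 genes described here are the 6 glypicans Gpc1 to Gpc6 and the 4 syndecans Sdc1 to Sdc4, taken by gene symbol from the 34797 gene names of the array, and they are read by 13 of its 55681 probes. RNA of immortalized murine embryonic fibroblasts (MEF) was hybridized to 1-colour Agilent mouse arrays, with 2 arrays from independent experiments for each of 3 groups and 6 arrays in all. WT MEF carry the strain label W4, TIA1 KO MEF lack TIA1 and are labelled BALB/c, and TIAR KO MEF lack TIAR, the product of Tial1, and are labelled C57BL/6. No other allele, treatment or age is labelled. Since every group is an immortalized line with a strain label of its own, genotype, strain and line cannot be told apart in any comparison below. All 6 arrays lay on 1 slide, in 2 rows, with the TIA1 KO arrays alone in their row, so that row and genotype cannot be told apart either.

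Glypicans are held on the outer side of the membrane by a glycolipid anchor, whereas syndecans cross the membrane and have a short cytoplasmic tail that binds PDZ proteins. Both carry heparan sulfate, a long sulfated sugar chain that binds growth factors, morphogens, chemokines and matrix proteins, and they act as co-receptors for FGF, Wnt, Hedgehog and BMP ligands. In fibroblasts they are known for roles in adhesion to fibronectin and in the response to growth factors. TIA1 and TIAR are related RNA-binding proteins that bind U-rich RNA and act in splicing and in the control of translation and mRNA turnover.

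Because TIA1 and TIAR bind U-rich RNA, the array probes, which copy the mRNA sense strand, were searched for TTTTT. Such a run was present in 4 of the 13 member probes, against 11.5% of the 26536 probes with a RefSeq mRNA accession. The 4 stretches of 30 bases around it are shown with the run in capitals.
Gpc2: tcataatatttaTTTTTTcatttgggaact
Gpc3: tagtggtaggatagattgtcTTTTTgcaaa
Gpc4: tagtgactttgcTTTTTaaatgaatggaca
Sdc1: tatggtgccccaTTTTTggcggcccgtaag
Of these 4 genes, Sdc1 was called in TIA1 KO MEF and Gpc3 in TIAR KO MEF, while Gpc2 and Gpc4 were called in neither comparison with WT MEF. The probes of Gpc1, Sdc2, Sdc3, Sdc4 and Gpc6 hold no such run. A probe covers 60 bases of a transcript, so the rest of each transcript was not searched.

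A start region was available in RefSeq (GRCm38.p6) for 7 of the 10 genes. The 120 bases before the annotated start are printed for the 4 called genes among them, since these genes moved in one or the other KO line. Capitals mark TATAA and GGGCGG on either strand.
Sdc1, chr12:8771276-8771395, plus strand: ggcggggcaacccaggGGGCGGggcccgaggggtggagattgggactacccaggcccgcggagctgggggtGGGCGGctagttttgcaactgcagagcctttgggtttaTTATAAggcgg
Sdc3, chr4:130792417-130792536, plus strand: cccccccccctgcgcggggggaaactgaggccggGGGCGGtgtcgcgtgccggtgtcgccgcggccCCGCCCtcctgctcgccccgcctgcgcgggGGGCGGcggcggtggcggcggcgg
Sdc4, chr2:164443189-164443308, minus strand: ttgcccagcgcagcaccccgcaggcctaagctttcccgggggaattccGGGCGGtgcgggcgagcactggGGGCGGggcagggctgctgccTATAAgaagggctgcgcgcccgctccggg
Gpc3, chrX:52613975-52614094, minus strand: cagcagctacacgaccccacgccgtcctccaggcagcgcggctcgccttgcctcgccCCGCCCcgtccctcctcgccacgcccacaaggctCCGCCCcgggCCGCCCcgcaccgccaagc
These 4 were picked after their values were seen. GGGCGG is held by 6 of the 7 windows, with 1 match in Gpc2 and Gpc5, 2 in Sdc1 and Sdc4, 3 in Sdc3 and Gpc3 and none in Gpc4, against 26.5% of 32851 windows of the same length that hold at least 1. TATAA, found in 11.8% of those windows, begins 29 bases before the start in Sdc4 and 10 bases before it in Sdc1, where its match on the other strand overlaps it. The windows of Sdc3 and Gpc3 hold no TATAA. Over the 7 windows GC content ranged from 62.5% in Gpc2 to 86.7% in Sdc3.

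Values are log2 intensities after normexp background correction, loess and quantile normalization, and a gene is read from its brightest probe. A probe was rated well above background on each array by the scanner software. Groups were compared with limma on their own 4 arrays, and calls required a fold change above 2 together with an adjusted p (Benjamini-Hochberg, over all 55681 probes) under 0.05. The 6 arrays had 16021 to 26295 probes well above background, with 16021 and 19996 on the TIA1 KO arrays. Medians over all 55681 probes, given below, are therefore taken mostly over probes without such signal. These 2 arrays also stood apart before normalization, with median spot intensities of 458 and 218 against 119 to 152 on the others. Their negative controls had medians of 196 and 119, against 89 to 112. The part of this in the TIA1 KO values was not tested. No spot was saturated. Replicates differed with a typical SD of 0.27 in WT, 0.29 in TIAR KO and 0.44 in TIA1 KO MEF. An exact permutation test over 2 arrays against 2 cannot give a two-sided p under 0.333 and was not used. In bulk RNA, fewer cells of a type and less RNA per cell cannot be told apart.

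The knocked-out genes were read first. The brightest Tia1 probe stood at 10.72 and 8.54 in WT, 7.87 and 8.44 in TIA1 KO and 9.56 and 9.58 in TIAR KO MEF, which put TIA1 KO lowest but without a call (log2 fold change −1.47, adjusted p = 0.288). The second Tia1 probe gave −1.62 (adjusted p = 0.116). The third, the dimmest, was well above background on 1 array only, a TIA1 KO array. It gave 0.87, against the label and without a call, but with WT not well above background this is no exact size. For Tial1, the probe measured on all 6 arrays read 11.71 and 11.09 in WT, 11.85 and 11.49 in TIA1 KO and 10.00 and 9.65 in TIAR KO MEF and was called lower in TIAR KO (−1.58, adjusted p = 0.0254). The brighter Tial1 probe, whose spot on WT array 1 was left out as an outlier, gave −2.63 (adjusted p = 0.200). Whether any of these probes lies in the deleted part of its gene is not given in the sources used here.

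In TIA1 KO MEF, 3 of the 10 genes were called higher than in WT (Gpc1, Sdc1 and Sdc2) and none lower, where 2.88% of all genes on the array were called higher and 1.63% lower. In TIAR KO MEF, 4 of 10 were called higher (Gpc3, Gpc6, Sdc3 and Sdc4) and none lower, against 4.36% higher and 2.82% lower among all genes. Among genes well above background on both arrays of WT or TIA1 KO MEF, which 7 of the 10 members were (not Gpc2, Gpc3 and Gpc5), 4.98% were called higher and 3.31% lower in TIA1 KO. Among genes with such signal in WT or TIAR KO MEF, 9 of the 10 members (not Gpc5), 8.32% were called higher and 5.39% lower in TIAR KO. Here and below, a gene can pass this filter through its higher group alone, as Gpc2 and Gpc3 did through TIAR KO MEF. The filtered shares therefore depend in part on the change itself, and no result about the members is read from them. With 10 genes, each call is a large share of the list. Both comparisons share the WT arrays. The median log2 fold change of the 10 genes was 0.69 for TIA1 KO and 0.54 for TIAR KO, against −0.07 and −0.01 over all genes. When arrays were scaled to a common median in place of quantile normalization, the median of all probes in TIA1 KO MEF moved to −0.67. Under that scaling, members called in TIA1 KO MEF were 1 higher (Gpc1) and 2 lower (Gpc4 and Sdc4), and over all probes 1876 were called higher and 13925 lower, against 1213 and 756 as reported. In TIAR KO MEF that scaling left Gpc6 and Sdc3 called higher and no member lower, with 1424 probes called higher and 2715 lower over the array, against 1885 and 1321 as reported.

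**Figure D1:**
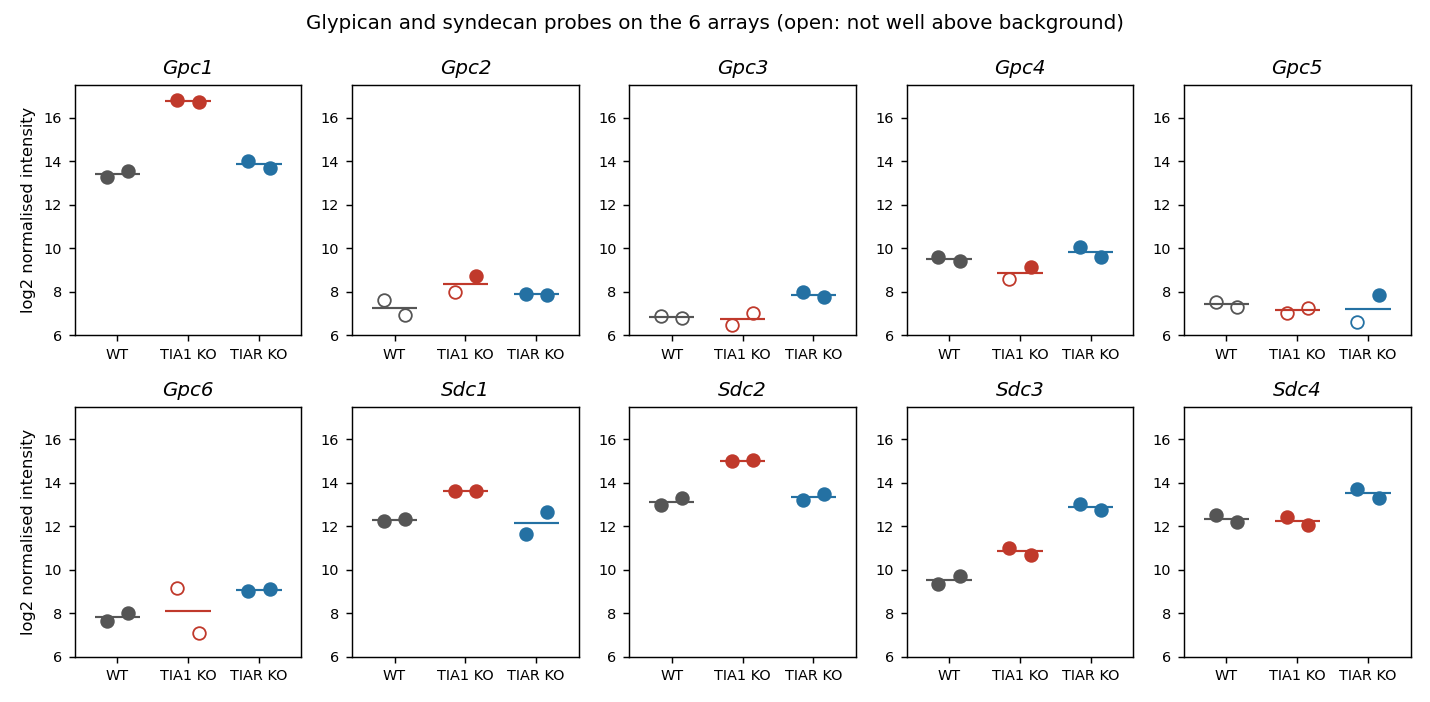
Log2 normalised intensity of the brightest probe of each gene on the 6 arrays; points are single arrays, open where the probe was not well above background, and lines are group means. Gpc1, Sdc1 and Sdc2 were highest in TIA1 KO MEF, and Sdc3 and Sdc4 in TIAR KO MEF.

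Gpc1 is the glypican with the widest expression in adult tissues. Its probe (chr1:94756711-94756770 in mm9) read 13.26 and 13.53 in WT, 16.81 and 16.70 in TIA1 KO and 14.02 and 13.70 in TIAR KO MEF. Both TIA1 KO arrays were far above the other 4, and the TIAR KO arrays lay just above WT without overlap. The rise in TIA1 KO was 10.3-fold (log2 fold change 3.37 ± 0.18 SE, 95% interval 2.89 to 3.84, adjusted p = 0.00714). In TIAR KO MEF the log2 fold change was 0.47 (interval −0.01 to 0.94, adjusted p = 0.258). Compared directly, TIAR KO was lower than TIA1 KO by 7.45-fold (log2 −2.90 ± 0.19 SE, adjusted p = 0.0116). With arrays scaled to a common median the log2 fold change in TIA1 KO was 1.84, which was 2.51 above the median of all probes under that scaling, and with processed intensities it was 3.26, or 1.28 above that median.

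Gpc3, an X-linked glypican that restrains Hedgehog signalling and body growth, was near background in most samples. Its brighter probe (chrX:49625740-49625799) read 6.86 and 6.80 in WT, 6.47 and 7.03 in TIA1 KO and 7.98 and 7.75 in TIAR KO MEF. It was well above background on the TIAR KO arrays alone, and these did not overlap the other 4. It was called higher in TIAR KO than in WT MEF (log2 1.04 ± 0.16 SE as measured, adjusted p = 0.0192), with an approximate bound of 1.83-fold. The bound sets WT array 1 at the lowest level rated well above background there and keeps WT array 2 at its own value. The second Gpc3 probe (chrX:49740892-49740951), designed to another transcript record, was not well above background on any array, so that it measures no change. The brighter one gave a log2 fold change of 3.61 when the scanner's processed intensities were used in place of normexp. That value is no exact size, since the probe was not well above background in WT MEF. In TIA1 KO MEF the brighter probe gave −0.08 (interval −0.73 to 0.58), which measures no change, since neither group was well above background.

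Gpc6 supports Hedgehog signalling in growing bone. Its probe (chr14:118375311-118375370) read 7.63 and 8.02 in WT, 9.16 and 7.08 in TIA1 KO and 9.01 and 9.14 in TIAR KO MEF. Both TIAR KO arrays were above both WT arrays, by 2.38-fold (log2 1.25 ± 0.19 SE, adjusted p = 0.0187). With processed intensities the log2 fold change was 1.97 (adjusted p = 0.0741). The TIA1 KO arrays lay 1 above and 1 below WT, and neither was well above background. Their change of 0.30 had an interval from −1.71 to 2.31, and the difference between the KO lines (0.95, interval −1.02 to 2.92) was not called.

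The remaining glypicans were not called in any comparison. Gpc4, a neighbour of Gpc3 on the X chromosome, read 9.60 and 9.41 in WT, 8.59 and 9.14 in TIA1 KO and 10.06 and 9.58 in TIAR KO MEF, so that TIA1 KO was below the other 4 arrays. The value of 8.59, on TIA1 KO array 1, was not well above background. The change in TIA1 KO was −0.64 (interval −1.31 to 0.03, adjusted p = 0.190) and in TIAR KO 0.31 (interval −0.22 to 0.85). Its second probe was not well above background in TIA1 KO MEF, so that no exact size can be given there. For a bound, array 1 was set at its dimmest probe rated well above background, and array 2 kept its own value. TIA1 KO was then 1.14-fold below WT and 1.43-fold below TIAR KO, neither called (limma adjusted p = 0.106 and 0.0699, on measured values). Brighter probes on array 2 also lacked the rating, so these folds are approximate. The same probe gave 0.33 in TIAR KO against WT. Gpc2, best known from developing neurons, was not well above background in WT or on TIA1 KO array 1. It read 7.96 and 8.73 in TIA1 KO and 7.88 and 7.86 in TIAR KO MEF (adjusted p = 0.174 and 0.290). Gpc5 was well above background on 1 of 6 arrays, a TIAR KO array at 7.85, and its second probe on none.

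Sdc1, the syndecan of epithelia and plasma cells, read 12.24 and 12.32 in WT, 13.63 and 13.61 in TIA1 KO and 11.64 and 12.68 in TIAR KO MEF (probe at chr12:8799383-8799442). Both TIA1 KO arrays were above the other 4, whereas the TIAR KO arrays lay on either side of WT. The rise in TIA1 KO was 2.53-fold (log2 1.34 ± 0.15 SE, adjusted p = 0.0312), but with arrays scaled to a common median the log2 fold change was −0.23, which was 0.44 above the median of all probes there. With processed intensities the log2 fold change was 1.12, at −0.86 relative to the median of all probes, which stood at 1.98. That median is taken mostly over probes not well above background, so it is no measure of how expressed genes moved. In TIAR KO the log2 fold change was −0.12 (interval −1.01 to 0.76). The difference between the KO lines, −1.46, was not called (adjusted p = 0.144).

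Sdc2, the main syndecan of mesenchymal cells, read 12.99 and 13.29 in WT, 14.99 and 15.06 in TIA1 KO and 13.20 and 13.49 in TIAR KO MEF (probe at chr15:32964204-32964263). The TIA1 KO arrays stood above the other 4, and TIAR KO overlapped WT. The rise in TIA1 KO was 3.68-fold (log2 1.88 ± 0.18 SE, adjusted p = 0.0233). With arrays scaled to a common median the log2 fold change was 0.31 (adjusted p = 0.618), which was 0.98 above the median of all probes there. With processed intensities the log2 fold change was 1.66, at −0.33 relative to the median of all probes, with the limit given for Sdc1. TIAR KO was lower than TIA1 KO by 3.20-fold (log2 −1.68 ± 0.18 SE, adjusted p = 0.0302). Under the common median this log2 difference was −0.56 (adjusted p = 0.375). The change from WT to TIAR KO was 0.20 (interval −0.27 to 0.68) and turned to −0.25 under the common median.

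Sdc3, the syndecan of neurons and developing muscle, read 9.35 and 9.74 in WT, 11.02 and 10.67 in TIA1 KO and 13.01 and 12.73 in TIAR KO MEF (probe at chr4:130382015-130382074). The 3 groups did not overlap, with WT lowest and TIAR KO highest. The rise in TIAR KO was 10.0-fold (log2 3.33 ± 0.20 SE, interval 2.82 to 3.84, adjusted p = 0.00105). It was called under all 17 alternatives of processing and samples. In TIA1 KO the log2 fold change of 1.30 (interval 0.67 to 1.93) was not called (adjusted p = 0.0734) and was −0.10 with arrays scaled to a common median. TIAR KO exceeded TIA1 KO by 4.07-fold (log2 2.02 ± 0.21 SE, adjusted p = 0.0294), and by 3.07 on the log2 scale under the common median.

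Sdc4, which is found in focal adhesions and binds protein kinase C alpha, read 12.52 and 12.19 in WT, 12.42 and 12.07 in TIA1 KO and 13.74 and 13.32 in TIAR KO MEF (probe at chr2:164251211-164251270). Both TIAR KO arrays were above the other 4, and TIA1 KO overlapped WT. The rise in TIAR KO was 2.25-fold (log2 1.17 ± 0.21 SE, adjusted p = 0.0357). With arrays scaled to a common median the log2 fold change was 0.73 (adjusted p = 0.114). In TIA1 KO the change was −0.11 (interval −0.71 to 0.49), and −1.70 under the common median (adjusted p = 0.00309), which was 1.03 below the median of all probes there. The difference between the KO lines, 1.28, was not called (adjusted p = 0.0819).

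**Figure D2:**
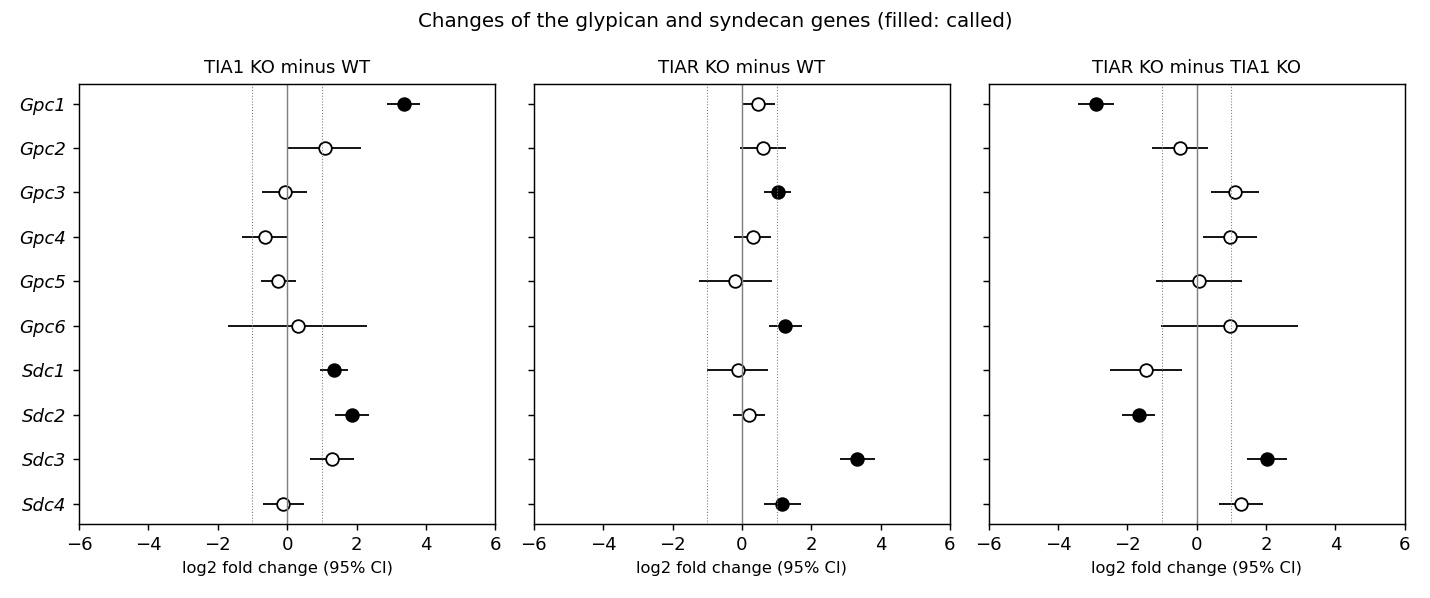
Log2 fold change of each gene with its 95% confidence interval in the 3 comparisons, from limma; filled points were called and dotted lines mark a fold change of 2. The called genes were Gpc1, Sdc1 and Sdc2 in TIA1 KO, Gpc3, Gpc6, Sdc3 and Sdc4 in TIAR KO, and Gpc1, Sdc2 and Sdc3 between the KO lines.

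Between the KO lines, 1 of 10 genes, Sdc3, was called higher in TIAR KO, against 2.06% of all genes and 4.08% of those well above background, and 2 of 10, Gpc1 and Sdc2, were called lower, against 2.12% and 3.76%. With arrays scaled to a common median, 5 were called higher (Gpc3, Gpc4, Gpc6, Sdc3 and Sdc4) and 1 lower in TIAR KO, while over all probes 7242 were called higher and 1065 lower, against 958 and 908 as reported.

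Each array was left out in turn. A group then holds 1 array, so the spread comes from the other group's pair alone and the lone array is assumed to vary like it. With either WT array left out, no member was called in TIA1 KO MEF. Without WT array 1 the adjusted p was 0.236 for Gpc1, 0.326 for Sdc1 and 0.295 for Sdc2, with log2 fold changes of 3.23, 1.30 and 1.73. Without WT array 2 it was 0.237, 0.309 and 0.275, with 3.50, 1.38 and 2.03. No probe of the whole array was called by limma in these 2 fits, in which 7202 and 7415 probes had an unadjusted p under 0.05. Without TIA1 KO array 2, 5 members were called, Gpc6 and Sdc3 besides the 3, and without TIA1 KO array 1 the same 3, where 10735 and 3068 probes of the array were called against 1969 with all arrays. In TIAR KO MEF, Sdc3 was called with each array left out in turn. Gpc6 was called without WT array 2 only, and Gpc3 (adjusted p from 0.0578 to 0.0865) and Sdc4 (0.0621 to 0.130) lost the call with each array left out, while their log2 fold changes stayed between 0.92 and 1.15 and between 0.96 and 1.38. Of the comparison between the KO lines, all 3 calls were lost without TIAR KO array 1 (adjusted p = 0.249 for Gpc1, 0.285 for Sdc2 and 0.302 for Sdc3) and without array 2 (0.228, 0.263 and 0.283). With any of the 4 arrays left out, the log2 fold change lay between −3.06 and −2.74 for Gpc1, −1.82 and −1.53 for Sdc2 and 1.85 and 2.20 for Sdc3. In this comparison 5 and 6 members were called without TIA1 KO array 1 and 2, where 3422 and 10086 probes of the array were called against 1866 with all arrays. Processed intensities left no member called in TIA1 KO MEF (adjusted p = 0.0587 for Gpc1, 0.106 for Sdc1 and 0.0750 for Sdc2) and no probe of the whole array, where 27765 probes had an unadjusted p under 0.05. A limma fit of all 3 groups together left Sdc3 alone in TIAR KO, with adjusted p of 0.0692 for Gpc3, 0.448 for Gpc6 and 0.0537 for Sdc4.

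**Figure D3:**
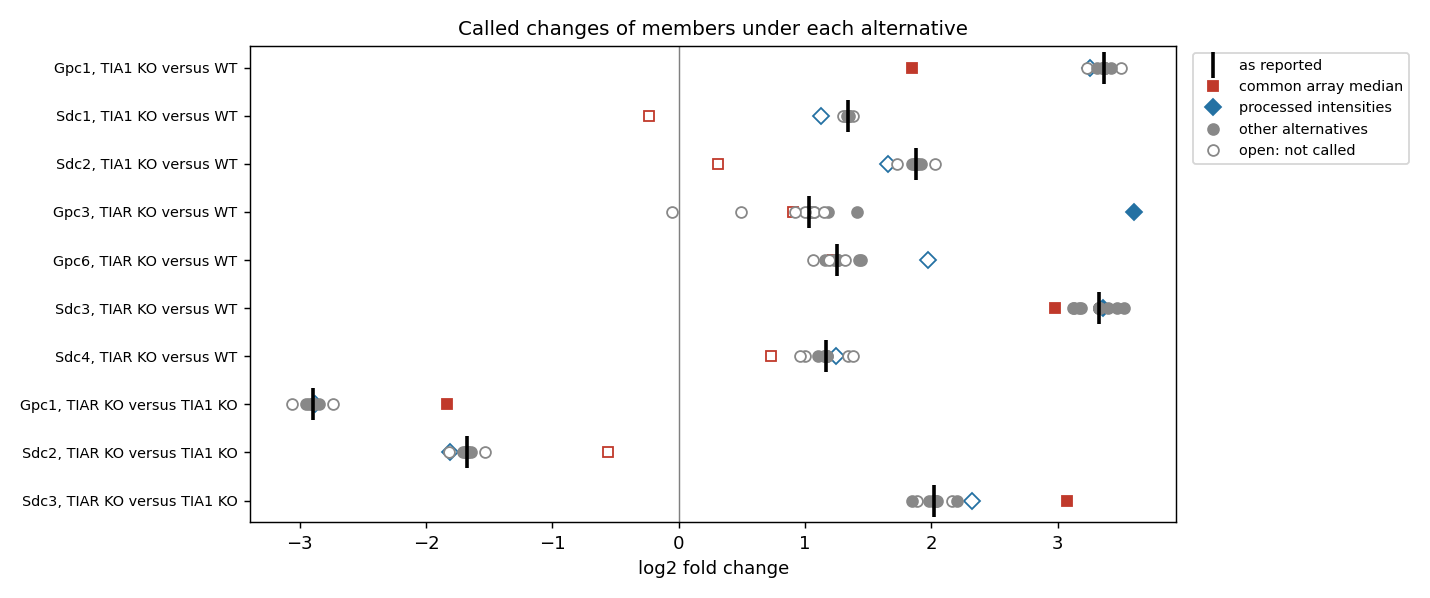
Log2 fold changes of the called members as reported (black bars) and under each alternative of processing or samples; open symbols were not called. Sdc3 in TIAR KO MEF was filled throughout, and Sdc1 in TIA1 KO MEF fell below 0 with arrays scaled to a common median.

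Heparan sulfate is built on both families by shared enzymes, so 42 further genes of the pathway were read in the same fits. In TIA1 KO MEF 3 of the 42 were called higher and 1 lower, and in TIAR KO MEF 4 higher and 2 lower. Of all genes on the array, 2.88% were called higher and 1.63% lower in TIA1 KO and 4.36% and 2.82% in TIAR KO, and of genes well above background 4.98% and 3.31%, and 8.32% and 5.39%. Such signal was present for 31 of the 42 in the first comparison and 32 in the second, and no result is read from the pathway as a whole. With arrays scaled to a common median these splits were 3 higher and 19 lower, and 4 higher and 8 lower, where over all probes 1876 were called higher and 13925 lower, and 1424 and 2715. None of the 11 enzymes that make the linker and polymerize the chain was called against WT in either line, Ext1 and Ext2 included, and none of the 6 partners of syndecan tails, such as Sdcbp (syntenin) and Cask. By role, the called genes were enzymes that modify the chain (1 of 16 in TIA1 KO and 3 of 16 in TIAR KO), those that trim it (2 of 4 and 3 of 4) and, in TIA1 KO, the other proteoglycans (1 of 5).

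Sulf1 and Sulf2 are secreted sulfatases that remove 6-O-sulfate from finished chains. Sulf1 read 8.62 and 9.13 in WT, 13.08 and 13.14 in TIA1 KO and 11.49 and 11.17 in TIAR KO MEF, and the 3 groups did not overlap. It rose by 4.24 in TIA1 KO (log2 fold change, adjusted p = 0.00753) and by 2.45 in TIAR KO (adjusted p = 0.00419). Sulf2 read 8.34 and 8.24 in WT, 12.26 and 12.60 in TIA1 KO and 9.66 and 10.15 in TIAR KO MEF, in the same order without overlap, with changes of 4.14 (adjusted p = 0.00576) and 1.61 (adjusted p = 0.0119). Both were lower in TIAR KO than in TIA1 KO (−1.78, adjusted p = 0.0284, and −2.53, adjusted p = 0.0263). Under the common median Sulf1 gave 2.29 in TIA1 KO and −0.74 between the KO lines (adjusted p = 0.272), and Sulf2 gave −1.55 between them. The second Sulf1 probe gave 1.19 in TIAR KO (adjusted p = 0.0760), and Sulf2 in TIAR KO had an adjusted p of 0.0503 without WT array 2.

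Hs6st2, which adds the 6-O-sulfate that the Sulf enzymes remove, read 10.10 and 9.94 in WT, 13.53 and 13.71 in TIA1 KO and 13.04 and 13.31 in TIAR KO MEF. It rose in both lines, by 3.60 (adjusted p = 0.00582) and 3.15 (adjusted p = 0.000739). In TIA1 KO it gave 2.08 with arrays scaled to a common median (adjusted p = 0.000254) and 3.56 without a call with processed intensities (adjusted p = 0.0587). Its paralog Hs6st1 rose in TIAR KO (1.52, adjusted p = 0.0314), and gave 1.12 in TIA1 KO without a call (adjusted p = 0.121). Ndst3, one of the enzymes that start sulfation of the chain, fell by 1.77 in TIAR KO MEF (adjusted p = 0.00328). Hpse, the heparanase that cuts the chain, fell by 1.12 in TIAR KO (adjusted p = 0.0388), with −0.18 from a second probe that was well above background on 4 of 6 arrays. In TIA1 KO MEF, Ndst3 gave −1.29 (limma adjusted p = 0.142) and Hpse −1.53 (adjusted p = 0.119), without a call. Each was well above background on 1 TIA1 KO array only. Glce, the epimerase, read 13.55 and 13.68 in WT and 11.96 and 10.15 in TIAR KO MEF and was not called (adjusted p = 0.0639). Hs6st1 lost its call with WT array 1 (adjusted p = 0.0529) or either TIAR KO array left out (0.115 and 0.149), and Hpse with WT array 2 (0.0894) or either TIAR KO array (0.156 and 0.148).

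Col18a1, a basement membrane proteoglycan, was the one member of its list called: it read 12.15 and 12.70 in WT, 8.33 and 8.86 in TIA1 KO and 11.47 and 11.74 in TIAR KO MEF. It fell by 3.83 in TIA1 KO (adjusted p = 0.0155), and TIAR KO exceeded TIA1 KO by 3.01 (adjusted p = 0.0178). On TIA1 KO array 1 the probe was not well above background, so neither value is an exact size. Hspg2 (perlecan), Agrn, Tgfbr3 and Cd44 were not called. Without either WT array the TIA1 KO calls of Sulf1, Sulf2, Hs6st2 and Col18a1 were lost, with adjusted p from 0.228 to 0.269. Xylt2, which starts the linker, was lower in TIAR KO than in TIA1 KO (−1.20, adjusted p = 0.0407), with −0.08 under the common median. All calls between the KO lines were lost without TIAR KO array 1 or 2, where no probe of the array was called by limma and 6318 and 6402 had an unadjusted p under 0.05.

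**Figure D4:**
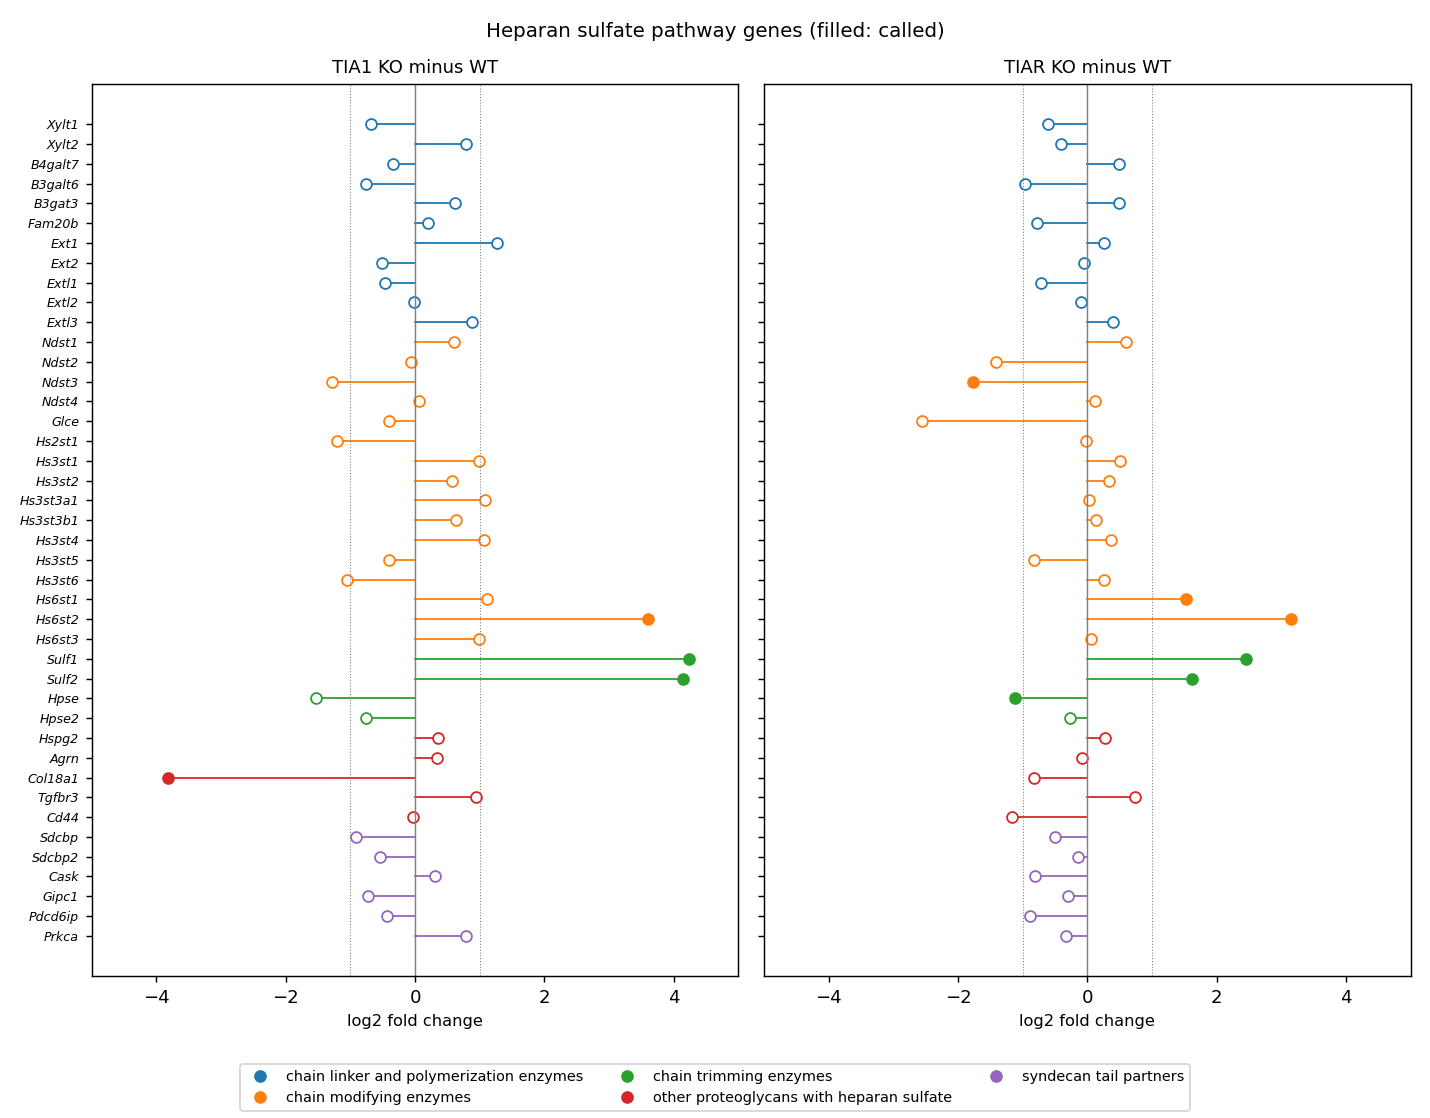
Log2 fold changes of 42 heparan sulfate pathway genes, each KO line against WT, by role (colour); filled points were called and dotted lines mark a fold change of 2. Hs6st2, Sulf1 and Sulf2 were called higher in both lines, and the linker and polymerization enzymes in neither.

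The labelled cell type was checked with 10 fibroblast markers. Vim and S100a4 were high on all 6 arrays, but Pdgfra read 6.37 and 6.40 in WT, not well above background, and 10.05 to 11.68 in the KO lines. Dcn and Thy1 were at or near background in WT, and Thy1 in TIA1 KO MEF too. In TIA1 KO 7 of the 10 markers were called higher and in TIAR KO 8, with none lower. Over all genes, 2.88% were called higher in TIA1 KO and 4.36% in TIAR KO. Against WT, all called fibroblast markers and all called members were higher. Between the KO lines Pdgfra, Thy1 and Dcn were called higher in TIAR KO, as was Sdc3, whereas Gpc1 and Sdc2 were called lower. Vim and S100a4 were called in neither line, and Thy1 in TIAR KO only. The log2 of the summed probe intensity of the 10 markers, which is no measure of abundance across genes, was 19.03 and 19.11 in WT, 20.33 and 20.30 in TIA1 KO and 20.41 and 20.44 in TIAR KO MEF. The brightest probe was that of S100a4 on the WT arrays and TIAR KO array 2. On the TIA1 KO arrays and TIAR KO array 1 it was that of Col1a2. The part of these differences between the lines in the member values was not tested.

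The calls of other markers stand against 2.88% of all genes called higher and 1.63% lower in TIA1 KO, and 4.36% and 2.82% in TIAR KO. Of 5 smooth muscle markers, 2 (Acta2 and Tagln) were called higher in TIA1 KO, and TIAR KO had 4, Cnn1 and Des besides. Their log2 summed intensity, with Acta2 the brightest probe, was 13.95 and 14.31 in WT, 18.03 and 18.18 in TIA1 KO and 18.86 and 18.69 in TIAR KO, while Myh11 was not well above background on any array. Epithelial cells are rich in Sdc1. Of 8 epithelial markers, Krt8 and Krt19 were called higher in TIA1 KO and Cdh1, Krt8 and Krt18 in TIAR KO MEF. Krt19, with the brightest probe, turned to −0.53 in TIA1 KO under the common median. The log2 summed intensity was 12.50 and 12.55 in WT, 13.42 and 13.50 in TIA1 KO and 13.12 and 13.01 in TIAR KO, and Epcam was well above background on 1 array only. Among 7 macrophage and leukocyte markers Itgam was higher in TIA1 KO (1.82, adjusted p = 0.0415, but −0.53 from its second probe, which was not well above background in TIA1 KO) and Cd14 lower in TIAR KO (−1.32, adjusted p = 0.0136), and Ptprc, Adgre1 and Lyz2 were not well above background on any array. Their log2 summed intensity, with Itgam the brightest probe, was 13.44 and 13.35 in WT, 14.38 and 14.19 in TIA1 KO and 13.28 and 13.27 in TIAR KO. None of 4 endothelial and 5 neural markers was called against WT. The part of these markers in the member values was not tested.

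For each called gene, the 3 genes nearest in pattern were sought among 18313 genes by the root mean square distance of log2 values centred over the 6 arrays. With 6 arrays many genes lie close to any pattern. The nearest to Gpc1 was Def6 (distance 0.154), to Gpc3 Fbxw25 (0.0619), to Gpc6 Nhsl2 (0.249), to Sdc1 Trem1 (0.150), to Sdc2 Slco2a1 (0.0493) with Taf9b next (0.0600), to Sdc3 Ptx3 (0.149), and to Sdc4 Pcdh18 (0.119). No member was among the 3 nearest genes of another.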

How the data were processed

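The authors deposited, for each of the 6 arrays, spot intensity and local background from the scanner (not normalized between arrays, positions on mm9), and a table of log2 values per probe after normexp (offset 50), loess and quantile normalization. Here normexp (offset 50) was applied to mean intensity and median background, log2 values went through 1 pass of loess on the mean of all 6 and then quantile normalization, outlier spots were left out and spots of a probe averaged. No low-signal filter was applied. These values correlated with the deposited log2 table at 0.997 to 0.999 per array, and that table was an alternative. Each comparison was fitted with limma 3.58.1 (R 4.3.3; named in the submitters' processing notes without a version), without covariates. A level counted as well above background when at least 50% of a probe's spots were flagged so. A gene was read from its brightest probe.

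Where all arrays of the lower group were near background, the bound of the fold places each of them at the dimmest probe that the array rated well above background, or at its own value where higher. Brighter probes can lack that rating, as Hs3st4 did at 8.07 on TIA1 KO array 2, where the dimmest rated probe read 5.78. The bounds are therefore approximate. Named genes are Tia1, Tial1, the 10 members, pathway genes and markers called in a comparison, and the 3 genes nearest in pattern to each called member; Glce and the uncalled examples of each list were named after their values were seen. Members and lists were chosen with earlier results of these data known. The scripts were tested on simulated data. Alternatives covered background, normalization, filters, probe choice, the fit, a replicate block and each array left out; leaving control spots out of normalization was chosen after seeing the data. The study describes the 2 arrays of a group as independent experiments on different biological samples.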

Additional observations from a re-analysis of the deposited data

Results flagged for a closer look

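For 7 genes the 2 KO lines differed by the direct limma comparison of TIAR KO with TIA1 KO MEF, which is the test of the difference between their changes from WT. Of the 10 members 1 was called higher and 2 lower in TIAR KO, and of the 42 pathway genes 1 higher and 3 lower. Over all genes 2.06% were called higher and 2.12% lower, and 4.08% and 3.76% of those well above background. Among the members these were Gpc1 (log2 −2.90, adjusted p = 0.0116) and Sdc2 (−1.68, adjusted p = 0.0302), lower in TIAR KO, and Sdc3 (2.02, adjusted p = 0.0294), higher in TIAR KO. Among the pathway genes they were Xylt2 (−1.20, adjusted p = 0.0407), Sulf1 (−1.78, adjusted p = 0.0284) and Sulf2 (−2.53, adjusted p = 0.0263), lower in TIAR KO, and Col18a1 (3.01, adjusted p = 0.0178), higher in TIAR KO. In the same comparison the markers called higher in TIAR KO were Pdgfra (log2 1.46), Dcn (6.48), Cnn1 (2.79), Krt18 (2.72) and Cd68 (1.48), and those called lower were Itgam (−1.66, but 0.58 from its second probe, which was not well above background in TIA1 KO) and Cd14 (−1.59). Also called higher, with approximate bounds of the fold, were Thy1 (131-fold), Map2 (3.80-fold), Des (2.08-fold) and Cdh1 (1.68-fold). None of these markers was well above background on either TIA1 KO array. Their part in the differences between the lines was not tested.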

How the results depend on the processing

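Of the 10 called member changes, 8 kept their direction under every alternative run, the exceptions in sign being Sdc1 in TIA1 KO (−0.23 with arrays scaled to a common median) and Gpc3 in TIAR KO MEF, whose second probe read −0.054 but was not well above background on any array and so measures no reversal. Of the 10, 1, Sdc3 in TIAR KO, was called under all of them. Counts of called members in TIA1 KO against WT, TIAR KO against WT and TIAR KO against TIA1 KO (3, 4 and 3 as reported) became 0, 2 and 0 from the processed intensities scaled at the 75th percentile and 1, 1 and 1 when the test itself was set against a fold of 2. With a common array median they were 3, 2 and 6, and with all 3 groups fitted together 3, 1 and 5. Leaving out each array in turn gave 0 to 5, 1 to 2 and 0 to 6. Counts of pathway genes (4, 6 and 4) became 0, 5 and 1 from processed intensities, 22, 12 and 8 with a common array median, 7, 4 and 6 with all 3 groups together, 4, 2 and 0 against a fold of 2, and 0 to 10, 4 to 6 and 0 to 9 with arrays left out. Between the KO lines the pathway count was also 7 with only probes well above background, 7 with an intensity trend and 2 from the authors' log2 table.

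Replicate numbers did not pair the samples (correlations of deviations 0.0303, 0.0781 and −0.0723). With a replicate block 1, 4 and 0 members and 4, 7 and 0 pathway genes were called, out of 671, 3308 and 0 probes in all, of which 14083, 11201 and 10684 had an unadjusted p under 0.05.

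The median of all probes moved to 1.98 (TIA1 KO against WT) and −1.85 (TIAR KO against TIA1 KO) with processed intensities and to −0.67 and 0.63 with a common array median. Other reversals were of changes that had not been called, except in markers. In TIA1 KO against WT, Gpc3 gave 3.12 from processed intensities, 0.045 without loess, 0.046 from its second probe and 0.09 from the authors' log2 table, Gpc5 gave 1.07 and 0.052 from processed intensities and its second probe, Gpc6 gave −0.13 and −0.12 from processed intensities and a common median, and Sdc3 gave −0.10 with a common median. Sdc2 in TIAR KO gave −0.15 and −0.25 from these 2 scalings. In TIAR KO against TIA1 KO, Gpc3 gave −0.10 from its second probe, and Gpc5 gave −1.30 from processed intensities, −0.0018 without loess and −0.058 from its second probe. With arrays left out, the TIA1 KO changes ran from −0.35 to 0.20 for Gpc3, −0.74 to 1.34 for Gpc6 and −0.28 to 0.061 for Sdc4, the TIAR KO changes from −0.82 to 0.44 for Gpc5 and −0.64 to 0.40 for Sdc1, and the differences between KO lines from −0.56 to 0.70 for Gpc5 and −0.087 to 1.99 for Gpc6. Krt19 in TIA1 KO gave −0.53 with a common median, and the second Itgam probe gave −0.53 in TIA1 KO and 0.58 between the KO lines. The cause was not tested. The second probes of Gpc3 and Gpc5 were not well above background on any array, so that their signs carry no direction. On the WT and TIA1 KO arrays the brighter probes of both genes were not either. Their signs in TIA1 KO against WT therefore carry no direction. Gpc2, Gpc3 and Gpc5 lay near background, where signal limits the precision of any change.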
